A study of Homo sapiens with 4 samples.

Results

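The genes described here are the small nucleolar and Cajal body RNAs named SNORA or SCARNA, together with the 4 protein genes of the box H/ACA particle, DKC1, NHP2, NOP10 and GAR1. Membership followed the platform annotation: a probe set had to map to exactly 1 gene with such a symbol, and each gene was read by its probe set with the highest mean over the 4 arrays. This gave 81 of 18377 genes, made up of 61 SNORA genes, 16 SCARNA genes and the 4 protein genes. A further 28 probe sets were shared between a SNORA or SCARNA gene and another gene and were left out, among them every probe set of 20 such RNA genes.

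RNA came from OPM2, an established human multiple myeloma line, on 4 one-colour arrays. The 2 VS-5584 cultures received 123 nM of this inhibitor of class I PI3 kinases and mTOR, and the 2 control cultures received its solvent DMSO, all for 24 h. The series' design text gives the dose as 125 nM. The sample titles call the replicates of each group biological, but how these cultures were kept separate is not described. The p-values therefore measure the spread between these samples, which may be technical. The cells are a single tumour line in bulk culture, in which fewer expressing cells and less RNA per cell cannot be told apart.

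Box H/ACA RNAs guide the conversion of uridine to pseudouridine. Each RNA is bound by dyskerin (the DKC1 product, which catalyses the reaction) and by NHP2, NOP10 and GAR1. SNORA RNAs act in the nucleolus, mainly on ribosomal RNA, and SCARNA RNAs act in Cajal bodies on the small nuclear RNAs of the spliceosome. In human cells most lie in introns of other genes, many of which encode ribosomal proteins or translation factors, and are cut out of the spliced intron. The SCARNA name covers more than H/ACA RNAs: by textbook class the 16 here held 8 H/ACA RNAs, 4 mixed box C/D and H/ACA RNAs and 3 box C/D RNAs, which guide methylation, while SCARNA9L was not classed.

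All 77 RNA members lay inside a gene of the RefSeq table. Of the 37 RNAs bright enough to test, 10 lay in ribosomal protein genes, or 27.0%. Among the 10 tested RNAs with the largest decreases and no overlap between the groups, 5 did, in RPSA, RPS12, RPL21 and RPL27A. These 5 are also counted in the 27.0%. The start sites of these hosts are shown because transcripts of ribosomal protein genes begin with a run of pyrimidines, the mark of the mRNAs whose translation depends on mTOR. The sequences are RefSeq's for GRCh38.p14 and run from 40 bases before to 20 bases after the annotated start on the + strand. Capitals mark a run of at least 8 bases that are all C or T and that touches the stretch from 5 bases before to 10 bases after the start.
RPSA, host of SNORA62, chr3:39406680-39406739, + strand: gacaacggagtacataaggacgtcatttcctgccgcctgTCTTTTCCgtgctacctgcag
RPS12, host of SNORA33, chr6:132814529-132814588, + strand: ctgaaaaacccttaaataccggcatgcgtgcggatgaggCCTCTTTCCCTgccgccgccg
RPL21, host of SNORA27, chr13:27251518-27251577, + strand: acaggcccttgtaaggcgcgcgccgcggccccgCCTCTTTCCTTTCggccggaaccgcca
RPL27A, host of SNORA3A and SNORA3B, chr11:8682752-8682811, + strand: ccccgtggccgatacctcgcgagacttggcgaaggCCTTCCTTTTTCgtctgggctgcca
The runs were 8, 11, 13 and 12 bases long in this order, read on the gene's own strand. Of 35116 start windows in the RefSeq table, 13.1% held such a run of at least 8 bases, so it is no mark of these hosts alone. The hosts were chosen by the decreases of their RNAs, and other ribosomal protein hosts are not shown. The runs therefore cannot set the lower RNAs apart, and any link to RNA levels was not tested.

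VS-5584 cultures had lower signals than control cultures for most of the RNAs bright enough to test, but no single RNA or protein gene passed the threshold. Of the 77 RNA members, 37 passed the filter on dim genes (an intensity above 48.9, or 5.61 on the log2 scale, as the mean over all arrays) and 40 did not. Of the 37, 26 were lower on average in VS-5584 cultures and 11 were higher, and their median log2 difference, VS-5584 minus control, was -0.14. Over all 11026 genes tested, 62.7% were lower and the median was -0.06. Among the lower RNAs, SNORA62, SNORA14B, SNORA23 and SNORA65 had VS-5584 means of 5.50, 5.54, 5.54 and 5.609, below the filter level of 5.612. They passed only through their control arrays. The lowest control mean among the 11 higher RNAs was 5.93, that of SNORA5C. After cyclic loess normalization 25 of the 37 were lower, against 52.5% of all genes. With limma's test adjusted over all genes by Benjamini and Hochberg, 0 of the 41 members tested had an adjusted p under 0.05, as had 0% of all genes tested.

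At an unadjusted limma p under 0.05, 8 of the 37 RNAs were lower, or 21.6%, where 8.93% of all genes tested were. In the other direction 1 RNA, SCARNA9, reached that level, or 2.70%, where 1.49% of all genes did. The groups did not overlap, with both VS-5584 arrays below both controls, for 13 RNAs, or 35.1%, where 29.2% of all genes tested did so. Both VS-5584 arrays were above both controls for 4 RNAs, or 10.8%, where 14.7% of all genes were. By these overlaps the RNAs stood near the background, and the excess at an unadjusted p under 0.05 rests on a few RNAs.

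**Figure D1:**
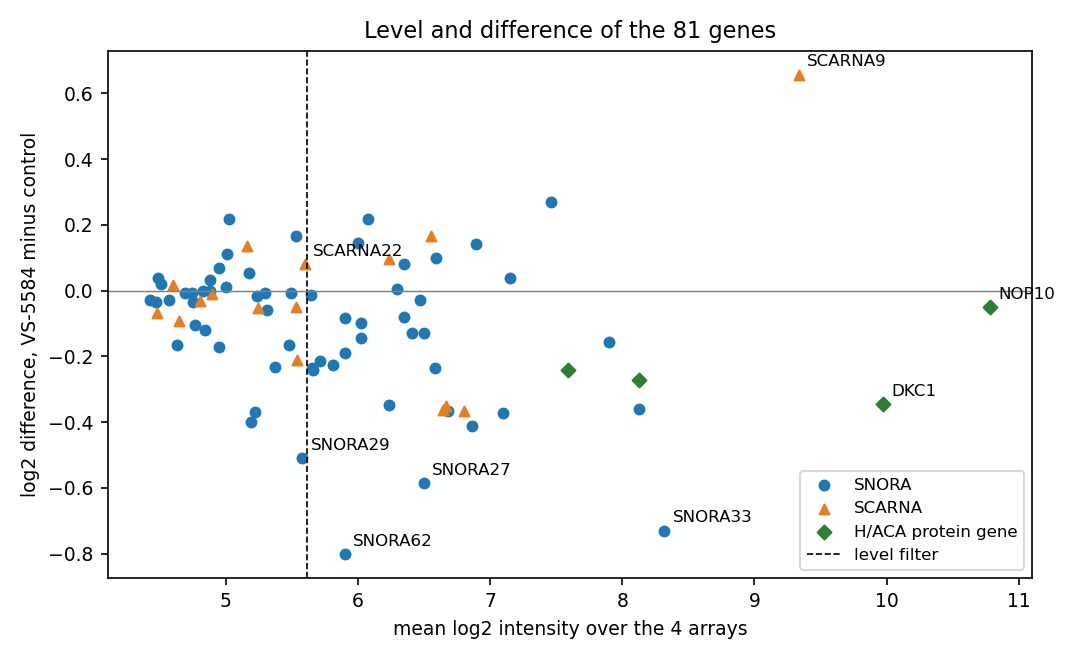
Mean log2 intensity over the 4 arrays (x axis) against the log2 difference, VS-5584 minus control (y axis), for the 81 genes, with SNORA genes as circles, SCARNA genes as triangles and H/ACA protein genes as diamonds. The dashed line is the level filter, left of which 40 RNAs lie, and SNORA62, SNORA33 and SCARNA9 lie farthest from 0.

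SNORA62 and SNORA33 were the lowest RNAs relative to control. SNORA62, contained in RPSA (a protein of the small ribosomal subunit that also carries the name laminin receptor), had log2 intensities of 5.63 and 5.37 on the VS-5584 arrays, against 6.30 and 6.30 on the control arrays. Both VS-5584 values lay clearly below the controls, which were nearly equal. The difference was -0.80 ± 0.14 (SE), 1.74-fold lower, with a limma adjusted p = 0.198. SNORA62 passed the threshold after cyclic loess normalization (limma adjusted p = 0.0413, with 16 of all genes) and when the prior variance followed intensity (0.00138, with 80 of all genes). It did not pass after median centring (limma adjusted p = 0.419), with no filter (0.667) or with the dimmest 20% left out (0.409). Its mean on the VS-5584 arrays, 5.50, was below the 5.61 of the filter, as was its level on replicate 2. SNORA62 thus passed the filter only through its control arrays, with a mean of 6.30, and its test results carry that limit.

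SNORA33, contained in RPS12 (another protein of the small subunit), had log2 intensities of 7.96 and 7.94 in VS-5584 cultures, against 8.68 and 8.69 in control cultures. The replicates of each group were almost the same, and the groups were far apart beside that spread. The difference was -0.73 ± 0.13 (SE), 1.66-fold lower, with a limma adjusted p = 0.198. SNORA33 passed when the dimmest 60% of genes were left out (limma adjusted p = 0.0371, with 58 of all genes). It did not pass after median centring (limma adjusted p = 0.419), after cyclic loess (0.0861) or with no filter (0.667). Relative to the control mean, SNORA33 differed by -0.72 on VS-5584 replicate 1 and by -0.74 on VS-5584 replicate 2.

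SNORA27, contained in RPL21 (a protein of the large ribosomal subunit), had 6.45 and 5.96 in VS-5584 cultures, against 6.74 and 6.84 in control cultures (log2 intensity). It was lower on both VS-5584 arrays, and most so on replicate 2. The difference was -0.59 ± 0.17 (SE; limma adjusted p = 0.338), with -0.34 on VS-5584 replicate 1 and -0.83 on VS-5584 replicate 2. SNORA67, contained in EIF4A1 (an RNA helicase of translation initiation), had 6.87 and 6.44 in VS-5584 cultures, against 7.11 and 7.02 in control cultures. Its difference was -0.41 ± 0.16 (SE; limma adjusted p = 0.444), with -0.20 on VS-5584 replicate 1 and -0.63 on VS-5584 replicate 2. In both RNAs the log2 difference on replicate 1, which is the value without replicate 2, was the smaller by far.

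SNORA3A and SNORA3B are near copies in different introns of RPL27A, a large-subunit protein gene. SNORA3A had log2 intensities of 6.92 and 6.91 in VS-5584 cultures, against 7.13 and 7.44 in control cultures, a difference of -0.37 ± 0.15 (SE; limma adjusted p = 0.438). SNORA3B was brighter, with 7.79 and 8.10 in VS-5584 cultures, against 8.13 and 8.48 in control cultures, a difference of -0.36 ± 0.17 (SE; 0.491). In both RNAs control replicate 2 was the highest array. Without it the differences were -0.22 for SNORA3A and -0.19 for SNORA3B. For SNORA3B the 2 groups were separated by only the small gap between VS-5584 replicate 2 and control replicate 1.

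SNORA5A, in TBRG4 (a mitochondrial RNA-binding protein), had 6.74 and 6.25 in VS-5584 cultures, against 6.95 and 6.77 in control cultures. Its difference was -0.37 ± 0.18 (SE; limma adjusted p = 0.504), with -0.12 on VS-5584 replicate 1 and -0.61 on VS-5584 replicate 2. SNORA5C, in the same host, had 5.91 and 6.23 in VS-5584 cultures, against 5.93 and 5.92 in control cultures. The groups of SNORA5C overlapped, with a difference of 0.14 ± 0.15 (SE), which was -0.01 without VS-5584 replicate 2. SNORA5B, the other copy in this host, was below the filter and differed by -0.01.

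Among the 6 SCARNA genes tested, 3 were lower and 3 higher. SCARNA12, a mixed box C/D and H/ACA RNA in PHB2 (a prohibitin of the inner mitochondrial membrane), had 6.58 and 6.66 in VS-5584 cultures, against 6.93 and 7.04 in control cultures. SCARNA5, also mixed, in the autophagy gene ATG16L1, had 6.47 and 6.51 in VS-5584 cultures, against 6.91 and 6.77 in control cultures. Both were separated between the groups by more than their replicates differed, with differences of -0.37 ± 0.13 and -0.35 ± 0.13 (SE; limma adjusted p = 0.417 and 0.426). SCARNA9L, in EIF1AX (a translation initiation factor), had 6.56 and 6.36 in VS-5584 cultures, against 6.90 and 6.75 in control cultures, a difference of -0.36 ± 0.14 (SE; 0.437). Its second, dimmer probe set differed by -0.07.

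SCARNA9, a box C/D RNA that guides methylation of the U2 spliceosomal RNA, was the brightest RNA member and the highest relative to control. It had log2 intensities of 9.36 and 9.97 in VS-5584 cultures, against 9.32 and 8.70 in control cultures. The groups did not overlap, but VS-5584 replicate 1 and control replicate 1 were nearly equal. The difference was 0.66 ± 0.24 (SE; limma adjusted p = 0.418). It was 0.35 without VS-5584 replicate 2 or without control replicate 2, and 0.97 without either of the other arrays. Its second probe set, at a mean log2 level of 5.73, differed by -0.24, so the probe sets of this gene disagreed in direction, and their mean differed by 0.21.

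The other 3 RNAs above both controls differed little. SNORA57, contained in the methyltransferase gene CSKMT, had 6.90 and 7.03 in VS-5584 cultures, against 6.78 and 6.87 in control cultures, a difference of 0.14 ± 0.13 (SE). SCARNA17, a box C/D RNA in the noncoding host SNHG22, differed by 0.10 ± 0.13, and SNORA52, in the ribosomal stalk gene RPLP2, by 0.08 ± 0.13. The second, dimmer probe set of SCARNA17 differed by -0.03, and the mean of its probe sets by 0.04. In each of the 3 the difference was at most slightly above its SE.

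**Figure D2:**
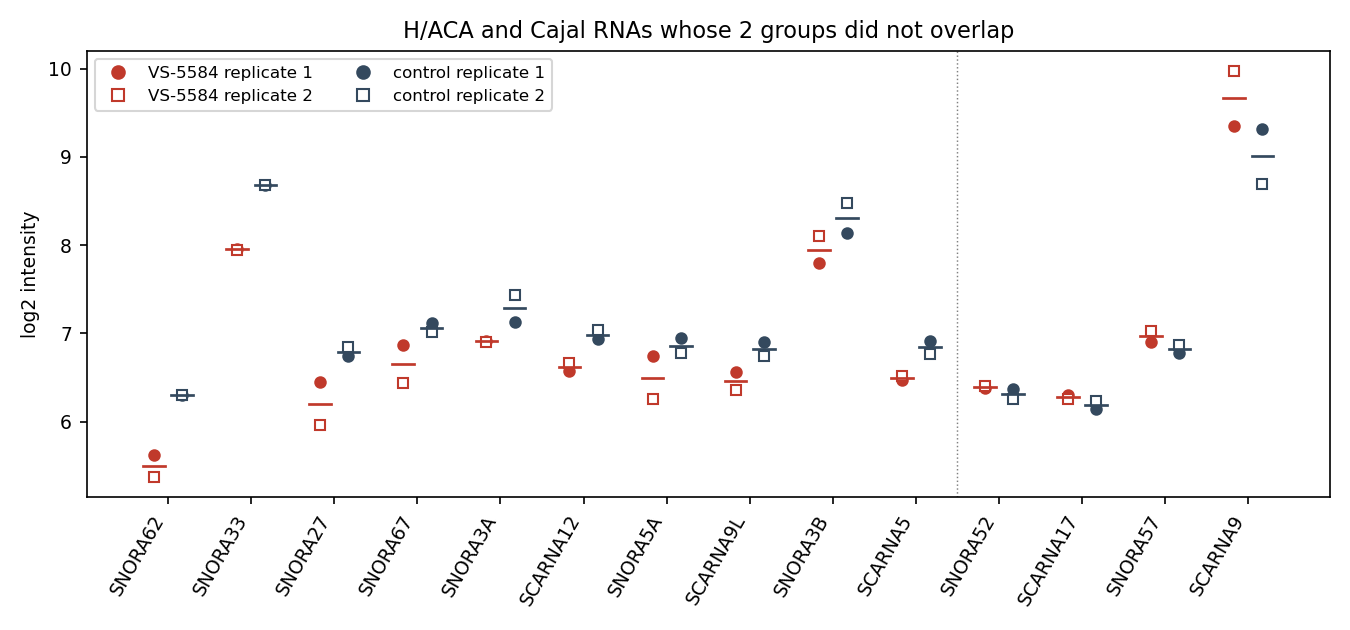
Log2 intensity (y axis) of the 10 RNAs with the largest decreases and the 4 with increases among the 37 tested whose groups did not overlap, with VS-5584 arrays in red left of the control arrays in dark blue, circles for replicate 1, squares for replicate 2 and bars for group means. The control arrays of SNORA33 and SNORA62 coincide, whereas those of SCARNA9 are 0.62 apart.

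The other RNAs among the 5 brightest, SNORA24 and SNORA80E, showed no separation of the groups. SNORA24, in the noncoding host SNHG8, had 8.02 and 7.62 in VS-5584 cultures, against 8.06 and 7.90 in control cultures. SNORA80E, in the RNA-binding protein gene KHDC4, had 7.39 and 7.80 in VS-5584 cultures, against 6.96 and 7.69 in control cultures. Its difference of 0.27 ± 0.23 (SE) was smaller than the 0.73 between its control arrays. SNORA6, contained in RPSA like SNORA62, had 6.39 and 5.73 in VS-5584 cultures, against 6.30 and 6.52 in control cultures. It was thus low on VS-5584 replicate 2 alone, while SNORA62 was low on both.

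Lettered copies of 1 RNA can share probe signal, so their values are uncertain and not independent. SNORA71A, SNORA71C and SNORA71D were all lower on average, by -0.24, -0.08 and -0.13, and only SNORA71A had groups that did not overlap. Of the 3 SNORA80 copies, SNORA80A differed by -0.03, SNORA80B by 0.22 and SNORA80E by 0.27, and in each the groups overlapped. Of the 6 SNORA70 copies, 4 were higher and 2 lower, with differences from -0.08 to 0.22. Only SNORA70G among them passed the filter, and its VS-5584 arrays, at 5.83 and 5.90, lay between its control arrays, at 5.64 and 6.25. SNORA14A and SNORA14B differed by -0.06 and -0.24, and SNORA2A and SNORA2B, both near the lowest intensities of the arrays, by 0.04 and -0.03.

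The 40 RNAs below the filter had mean intensities from 21.6 to 48.4, where the arrays had lower quartiles of 29.9 to 31.9 and medians of 49.3 to 52.5. Of these, 28 were lower and 12 higher, with a median difference of -0.02, and none of them was tested. No share over all genes below the filter is given here, and that of the brighter genes tested cannot stand in for it. SNORA51, in NOP56, was the dimmest RNA to pass, at a mean log2 intensity of 5.64 and a difference of -0.01. SCARNA22, at 5.60, was the brightest to fail. This RNA lies in NSD2, the gene placed under immunoglobulin enhancers by the translocation known in OPM2 cells. SCARNA22 had log2 intensities of 5.55 and 5.73 in VS-5584 cultures, against 5.49 and 5.62 in control cultures, which overlapped, with a difference of 0.08. Its host NSD2 had 8.61 and 8.28 in VS-5584 cultures, against 8.50 and 8.51 in control cultures, and differed by -0.06 ± 0.15 (SE), which was 0.08 after cyclic loess.

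The largest differences among the dim RNAs, chosen after their values were seen, were those of SNORA29, SNORA16B and SNORA41. SNORA29, in the chaperonin gene TCP1, had 5.59 and 5.06 in VS-5584 cultures, against 6.03 and 5.64 in control cultures, a difference of -0.51. SNORA16B, in the phosphatase subunit gene PPP2R5A, differed by -0.40, and SNORA41, in the elongation factor gene EEF1B2, by -0.37. In all 3 both VS-5584 arrays were below both controls.

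The arrays of each group differed among themselves. Among the 37 RNAs tested, the median absolute log2 difference was 0.23 between the VS-5584 arrays and 0.18 between the control arrays. Over all genes tested these were 0.20 and 0.10. Control replicate 1 minus control replicate 2 had a median of -0.14 in these RNAs and of 0.01 over all genes. The RNAs' median against the control mean was -0.09 on VS-5584 replicate 1 and -0.22 on VS-5584 replicate 2, where all genes had -0.0022 and -0.14. The median difference was -0.06 without control replicate 2 and -0.28 without control replicate 1.

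VS-5584 replicate 2 stood apart over the whole array, with an upper quartile of intensities of 106, against 115 to 118 on the other arrays. Its median was higher, 52.5 against 49.3 to 50.0, and so was its lower quartile, 31.9 against 29.9 to 31.0. Without VS-5584 replicate 2, 29 of the 37 RNAs were lower, where 5578 of all 11026 genes tested were. SNORA33 and SNORA62 then had the largest decreases, at -0.72 and -0.67. Without VS-5584 replicate 1, 24 of the 37 were lower, where 7432 of all genes were.

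**Figure D3:**
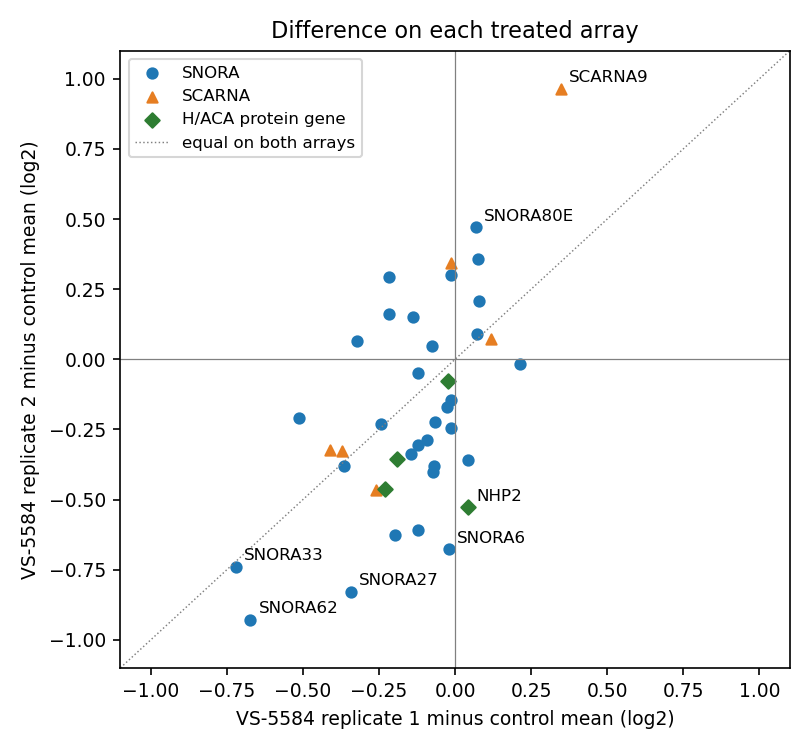
Log2 difference from the control mean on VS-5584 replicate 1 (x axis) and replicate 2 (y axis) for the 41 members tested, with the dotted line marking equal differences. SNORA33 lies on the line at -0.72 and -0.74, SNORA6 and NHP2 are near 0 on replicate 1 only, and SCARNA9 is at 0.35 and 0.97.

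The RNAs of ribosomal protein hosts could be set beside their hosts in 6 cases. SNORA3A and SNORA3B had log2 differences of -0.37 and -0.36, against 0.12 for their host RPL27A. SNORA65 had -0.21, against 0.14 for RPL12, and SNORA52 had 0.08, against 0.22 for RPLP2. SNORA10 had 0.04, against 0.13 for RPS2, and SNORA21 had -0.23, against -0.25 for RPL23. The RNA was below its host in 5 of these 6 pairs. In 3 of them the ratio of RNA to host on both VS-5584 arrays was below that on both control arrays. These 3 were SNORA3A, SNORA3B and SNORA65, the first and second of which share 1 host value. Over all 27 pairs with a tested host, the RNA was below its host in 14. The ratio was apart and lower in 5 of the 27, and apart and higher in 4. Among the 21 pairs with other hosts these ratios were lower in 2 and higher in 4. The difference between RNA and host was not tested, and the sign for RPL27A turned to -0.21 when its probe sets were averaged and to -0.01 without control replicate 1.

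RPSA, RPS12 and RPL21 were not among the genes tested on a probe set of 1 gene, so the hosts of the 3 lowest RNAs have no value here. Over all 27 RNAs with a tested host, 18 RNAs were lower, and of their 24 hosts 16 were lower. No host passed the threshold (limma, smallest adjusted p = 0.371, with 3 lower and 0 higher at an unadjusted p under 0.05). These shares, 66.7% lower and 12.5% lower at that p, stood near the 62.7% and 8.93% of all genes tested. RNA and host differences showed a Spearman's rho of -0.03 over the 27 pairs (a description; the pairs share arrays and some hosts). Some RNAs and hosts went opposite ways: SCARNA9 had 0.66 and its host CEP295 (a centriole protein) -0.46, and SNORA80B had 0.22 and its host ODC1 (the first enzyme of polyamine synthesis) -0.14. A probe set in an intron can read the finished small RNA or unspliced host RNA, and the array does not tell these apart.

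**Figure D4:**
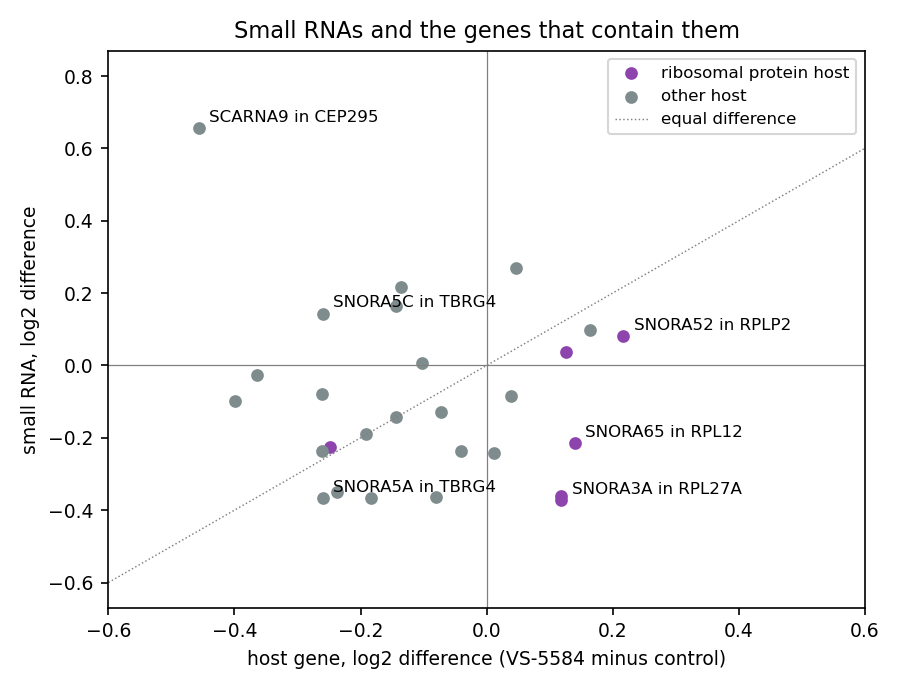
Log2 difference, VS-5584 minus control, of the host gene (x axis) and of the small RNA inside it (y axis) for 27 pairs, with ribosomal protein hosts in purple, other hosts in grey and the dotted line at equal differences. SNORA3A and SNORA3B lie below 0 with their host RPL27A above 0, and SCARNA9 is above 0 with CEP295 below.

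Length and level were only weakly related. The SNORA genes were 123 to 236 bases long in the RefSeq table (median 134) and the SCARNA genes 125 to 421 (median 226.5). Spearman's rho with length was 0.20 for the mean level over 77 RNAs and 0.12 for the difference over the 37 tested. The labels name a spin-column kit, a kind that keeps short RNA poorly, and how much short RNA each preparation kept was not measured.

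The 4 proteins of the H/ACA particle were all lower on average, NHP2 by its brighter probe set only, where 62.7% of all genes tested were lower. After cyclic loess 3 of them were lower, where 52.5% of all genes were. DKC1, the pseudouridine synthase, had log2 intensities of 9.92 and 9.68 in VS-5584 cultures, against 10.10 and 10.19 in control cultures. The groups did not overlap, with a difference of -0.35 ± 0.14 (SE; limma adjusted p = 0.452), and -0.23 without VS-5584 replicate 2. GAR1, which joins the particle last in exchange for NAF1, had 8.08 and 7.91 in VS-5584 cultures, against 8.23 and 8.30 in control cultures, also without overlap. Its difference was -0.27 ± 0.14 (SE; 0.518), and -0.13 after cyclic loess.

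NHP2, an RNA-binding protein of the particle, had 7.75 and 7.18 in VS-5584 cultures, against 7.76 and 7.66 in control cultures. It was low on VS-5584 replicate 2 alone, and without that array its difference of -0.24 ± 0.18 (SE) became 0.04. Its second probe set differed by 0.02, and the mean of its probe sets by -0.11. The probe set numbers of the members run by chromosome. That of the brighter NHP2 set falls between those of members on chromosomes 1 and 10, while NHP2 lies on chromosome 5. What this probe set reads was not checked. NOP10, a small protein that contacts both dyskerin and NHP2, was the brightest, with 10.79 and 10.73 in VS-5584 cultures, against 10.76 and 10.86 in control cultures. These overlapped, and the difference of -0.05 turned to 0.02 after cyclic loess.

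Factors that assemble, place or release these particles were lower in most cases, and none passed the threshold. Over all genes tested 62.7% were lower, the median was -0.06, and brighter genes tended to be lower (Spearman's rho of -0.35 between level and difference over 11026 genes, a description). All 7 assembly factors were lower, with a median of -0.29. RUVBL2 and RUVBL1, the paired ATPases of the R2TP chaperone complex, differed by -0.49 ± 0.18 and -0.42 ± 0.17 (SE; limma adjusted p = 0.426 and 0.443). SHQ1 and NAF1, which escort dyskerin before the mature particle forms, differed by less, -0.16 and -0.15, and their groups overlapped. Of 9 factors that free the RNA from its intron or trim its end, 8 were lower, with a median of -0.22. TOE1, a deadenylase of Cajal bodies, differed by -0.45 ± 0.16, and DBR1, which opens intron lariats, by -0.42 ± 0.15 (SE; limma adjusted p = 0.403 and 0.423). PARN, which trims the telomerase RNA and H/ACA RNAs, differed by 0.06.

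In the list of telomerase and Cajal body genes the 10 tested all had negative differences, with a median of -0.25. GEMIN5, which recognises small nuclear RNAs, differed by -0.43 ± 0.16, and NOLC1, a chaperone of nucleolar and Cajal body particles, by -0.34 ± 0.14 (SE; limma adjusted p = 0.417 and 0.469). TERC, the telomerase RNA, which carries an H/ACA domain, had 5.81 and 5.88 in VS-5584 cultures, against 5.92 and 5.82 in control cultures, and TERT, the telomerase enzyme, differed by -0.01. Neither was separated between the groups. Of 12 pseudouridine synthases that work without a guide RNA, 11 were lower, with a median of -0.18, among them PUS7 (-0.46 ± 0.16, adjusted p = 0.400) and RPUSD4 (-0.41 ± 0.18, SE, 0.481, limma). Without VS-5584 replicate 2 none of these genes passed either. The lists were lower by less on VS-5584 replicate 1, with medians of -0.18 for assembly, -0.16 for release, -0.11 for telomerase and Cajal bodies and -0.03 for the synthases, than on replicate 2, with -0.46, -0.29, -0.38 and -0.32. The median over all genes was -0.0022 on replicate 1 and -0.14 on replicate 2. After cyclic loess, with 52.5% of all genes lower, the lower genes numbered 7 of 7 for assembly, 7 of 9 for release, 9 of 10 for telomerase and Cajal bodies and 8 of 12 for the synthases.

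**Figure D5:**
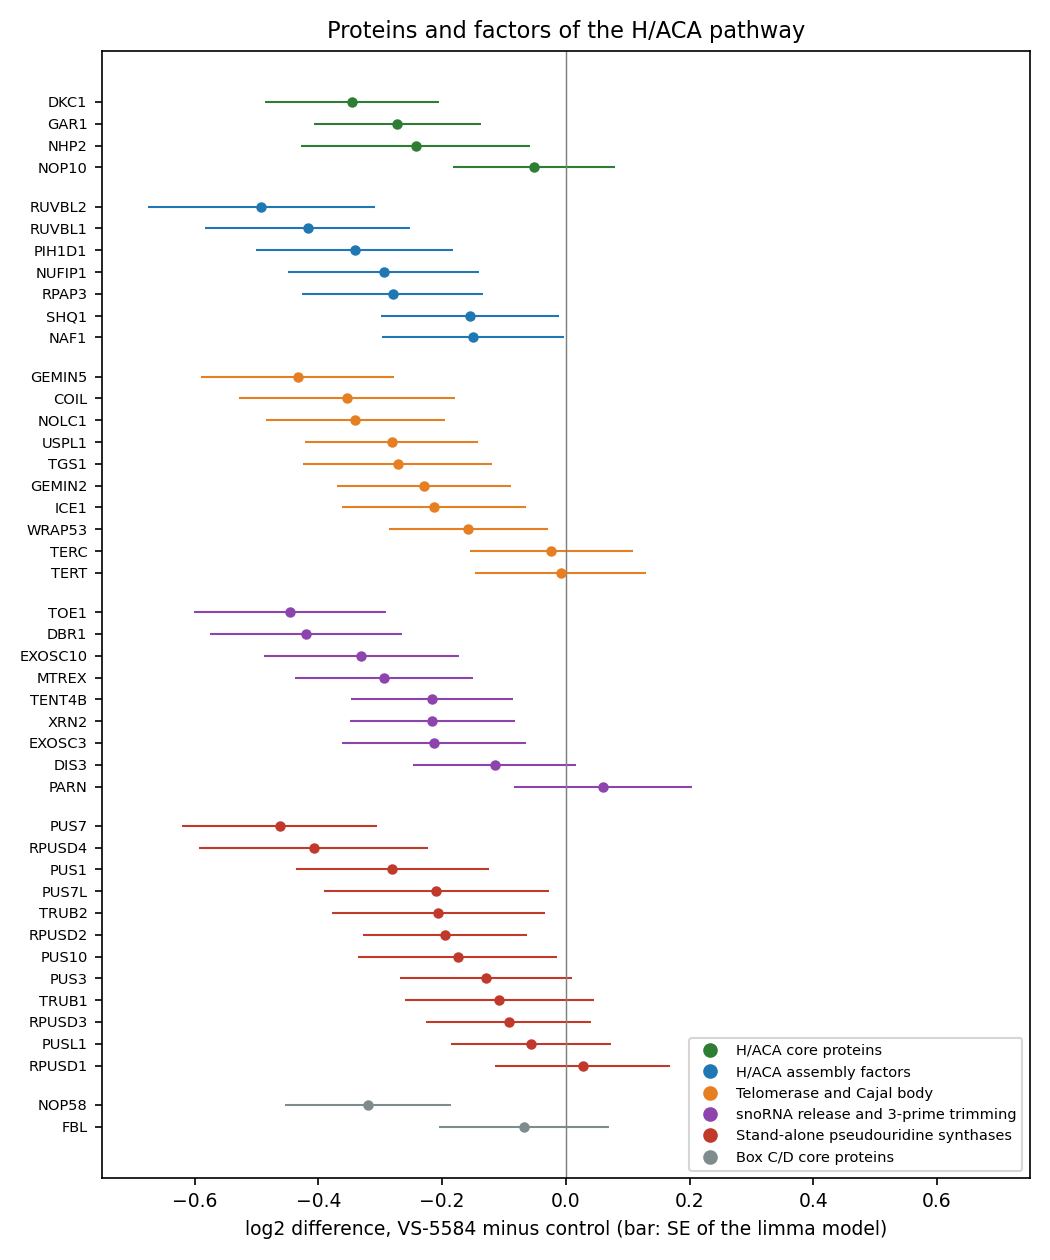
Log2 difference, VS-5584 minus control (x axis), with bars for the SE of the limma model, for the H/ACA proteins, their assembly factors, telomerase and Cajal body genes, RNA release factors, stand-alone pseudouridine synthases and the tested box C/D proteins. Apart from PARN and RPUSD1 every gene plotted lies below 0, although after cyclic loess NOP10, TERT, DIS3, PUS3, PUSL1 and TRUB1 also lie above it and after median centring RPUSD1 lies below it. None passed the threshold.

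Box C/D snoRNAs, the sister class that guides methylation, are given for scale. Against the 21.6% of the SNORA and SCARNA RNAs that were lower at an unadjusted p under 0.05 (limma), the share was 26.4% among SNORD genes, 14 of 53 tested. Of 115 SNORD genes these 53 passed the filter, 46 were lower and their median was -0.20. The difference between the classes was not tested. Of their core proteins, NOP58 differed by -0.32 ± 0.13 (SE; limma adjusted p = 0.463) and FBL, the methyltransferase fibrillarin, by -0.07.

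Plasma cell markers had signal on the arrays, which does not by itself establish cell identity. All 11 plasma cell markers passed the filter, at mean log2 intensities from 6.73 to 11.7, where all genes tested had a median of 6.83. None passed the threshold, the lowest in p being SLAMF7 (0.25 ± 0.14, SE) and TNFRSF17 (0.29 ± 0.17). Of 9 markers of other blood cells 8 had a value and 2 passed the filter, NCAM1, which myeloma cells can carry, and HBB, with differences of -0.18 and -0.10. Their mean log2 intensities, 10.1 and 7.18, were above that of the dimmest plasma cell marker.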

How the data were processed

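The submitters' processing notes name RMA, with no version. The deposited values are linear intensities, 1 per probe set. No source used here states a background step or an offset, and an offset would shrink the differences of dim genes. Without scanner files no detection call was made, and precision is set by having only 4 arrays. The intensities were taken to the log2 scale with no further normalization.

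Of 28869 probe sets 19310 carried 1 gene in the platform annotation, and 19279 of these matched RefSeq GRCh38.p14 by gene ID for symbols. The 40% of genes with the lowest mean over all arrays were left out. The groups were compared by limma 3.58.1 under R 4.3.3, using lmFit with eBayes and a constant prior variance. Tests were two-sided and adjusted by Benjamini-Hochberg over 11026 genes at a threshold of 0.05, and SEs are the model's. The code was tested on simulated data. A host is the RefSeq gene whose span contains the whole RNA gene, protein-coding first, then the shortest. A planned restriction to the same strand was not applied, because the table gives no strand. Start windows came from RefSeq's promoter sequences, for hosts chosen after values were seen.

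Members, gene lists and naming rules were chosen with earlier results of these data known. Named by rule were the 4 proteins, up to 10 decreases and 10 increases without group overlap, the 5 brightest RNAs, SCARNA22, lettered copies, the RNAs nearest the filter, tested hosts, and the 2 genes of each list lowest in p. SNORA36A and SNORA56, also in the rule, lie on shared probe sets and are not analysed here. Other genes complete a list or were chosen after their values were seen. Same-numbered VS-5584 and control replicates deviated together with r = 0.16 over all genes, from 2 pairs with no stated link, so the numbers were not taken as pairs. Over the 37 RNAs tested r was 0.25, with 13 higher on replicate 2 in both groups and 5 on replicate 1. All genes leaned the other way, with 1602 higher on replicate 2 in both groups and 4378 on replicate 1. Alternatives were median centring, cyclic loess, other filters, an intensity trend, averaged probe sets, a replicate block, leaving out each array, other memberships and, chosen after seeing the data, subtracting 16 from every intensity.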

Additional observations from a re-analysis of the deposited data

How the results depend on the processing

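The count of members past the threshold, 0 of 41, was 1 after cyclic loess, 1 with an intensity trend, 1 with the dimmest 60% left out, and 0 to 10 when 1 array was left out. With the replicate block the count of members was 4 (SNORA62, SNORA33, SCARNA9 and SNORA27), among 432 genes in all. Replicate numbers were no stated pairing. Lower RNAs numbered 54 and higher RNAs 23 with no filter, and 15 were lower with the dimmest 60% left out, since other RNAs were then tested. Shares over all genes under those filters are not given here. With 1 array left out the RNAs numbered 23 to 29 lower and 8 to 14 higher. RNAs lower at an unadjusted p under 0.05 (limma), 8 with all arrays, numbered 3 to 15 then. RNAs higher at that level numbered 1 with all arrays, 0 with averaged probe sets and 0 without the box C/D SCARNA genes. With all arrays 1.49% of all genes were higher at that level. Both counts of RNAs changed with 1 array left out. The median difference ranged from -0.28 to -0.061 with 1 array left out. Pathway genes past the threshold numbered 0 to 22 and hosts 0 to 7, the higher counts without VS-5584 replicate 1. A lone array was assumed to vary like the other group.

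Signs turned as follows, and the cause was not tested. Median centring gave TOMM20 -0.034, RPUSD1 -0.018, SNORA10 -0.00877 and RAP1B -0.0074. Cyclic loess gave NOP10 0.017, SNORA80A 0.018, HBB 0.020, NSD2 0.083, TERT 0.0195 and USP34 0.0076. Averaged probe sets gave RPL27A -0.21. Leaving out 1 array gave ranges that cross 0: NHP2 -0.53 to 0.042, SNORA24 -0.36 to 0.043, SNORA80E -0.096 to 0.63, SNORA5C -0.014 to 0.30, SNORA70G -0.39 to 0.22, SNORA71C -0.20 to 0.039, SNORA71D -0.44 to 0.18, SNORA80A -0.22 to 0.16, SNORA51 -0.074 to 0.047, FBL -0.15 to 0.014, HBB -0.28 to 0.084, RPL27A -0.011 to 0.25, EIF1AX -0.16 to 0.00060, NSD2 -0.22 to 0.10, POR -0.087 to 0.016, TOMM20 -0.15 to 0.17, PHLPP2 -0.42 to 0.031, COBLL1 -0.15 to 0.070, SNORA10 -0.22 to 0.29, PARN -0.064 to 0.18, RPUSD1 -0.10 to 0.16, TERC -0.072 to 0.026, TERT -0.10 to 0.087 and RAP1B -0.059 to 0.14. Of 77 genes recomputed this way, those not listed here kept their direction. The directions of the other pathway genes were compared under centring and cyclic loess only.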
